A study of Mus musculus with 24 samples.

Results

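The transmembrane mucins Muc1, Muc3, Muc4, Muc13 and Muc20 were followed across colon tissue from 6 groups of mice. The members were the 5 named genes, and their probes were all those whose transcript accession belongs to 1 of these symbols in the mouse gene table. Of the 5 genes, 4 had probes, 8 in all among the 56605 probes of the array, and 7 of the 8 were well above background on at least 1 array. No probe carried a Muc3 accession, so Muc3 was not analysed here.

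The study asked how sex, ovarian hormones and a high-fat diet relate to colitis-associated colorectal cancer. C57BL/6J mice, bought at 7 weeks of age, had 1 week of acclimatization and then surgery: males (M) and females (F) had a sham operation, and a further set of females was ovariectomized (F(OVX)). After 14 days they were kept for 14 weeks on 1 of 2 diets, with 10 kcal% of fat (low fat, LFD) or 45 kcal% (high fat, HFD). A group is named by kind of mice and diet, as in M + LFD or F(OVX) + HFD. All 6 groups were given the carcinogen azoxymethane (10 mg/kg) and 3 cycles of the colitis-inducing agent dextran sulfate sodium (1.5%), and tissue was taken 75 days after azoxymethane. There was no group without carcinogen, so every difference below is between groups of treated mice. The methods place the arrayed tissue in the distal colon and name 5 animals per group, those closest to the mean body weight, whereas 4 arrays per group were analysed here. Whether the tissue held tumors is not given in the sources used here.

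Mucins are large proteins with long stretches of O-linked sugars. The secreted ones form the mucus gel, and the transmembrane ones are anchored in the apical membrane of epithelial cells, where their sugars make the glycocalyx and their cytoplasmic tails can take part in signalling. Muc4 carries EGF-like domains and binds the receptor Erbb2, Muc20 has been described as a partner of the receptor Met, the tail of Muc1 is phosphorylated and binds Ctnnb1 and Grb2, and Muc3 and Muc13 are prominent on the surface of intestinal epithelium.

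RNA of each sample was hybridized to a 1-color Agilent array, and levels are given as log2 of the processed signal after quantile normalization over the 24 arrays. A level has meaning only for its own probe, so levels are compared between samples and not between genes. The share of probes well above background ran from 40.5% to 61.9% over the arrays. The lowest share was that of F(OVX) + LFD replicate 3. Its 75th percentile of processed signal was 125, against 408 to 495 on the other arrays of its group. Each of the 3 slides held 1 sex or surgery, with a diet in each row and the replicate number as the column. Slide and sex or surgery cannot be told apart, nor can slide row and diet. The epithelium markers Epcam, Cdh1, Krt8, Krt18, Krt19, Krt20 and Cldn7 were all well above background on every array. The M + LFD group was mixed in a marker of position along the gut: the distal homeobox gene Hoxb13 was at 2.18, not above background, and 5.04 in M + LFD replicates 1 and 2 against 12.58 to 14.79 on the other 22 arrays. Hoxb8, which lies further toward the 3′ end of the same cluster, was at 10.87 and 9.70 on these 2 arrays and at 2.05 to 5.94 on the others. Diet differences in males that the text turns on are therefore also given without these 2 arrays. The other 22 arrays were not alike in all distal homeobox genes. The mean log2 of 8 such genes, Hoxb13 among them, ran on them from 5.329 in F(OVX) + HFD to 8.276 in M + HFD.

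The probes were A_66_P125683 for Muc1 (NM_013605), A_55_P2025687, A_52_P578956 and A_55_P2029603 for Muc4 (NM_080457), A_55_P1971840 and A_51_P263033 for Muc13 (NM_010739), and A_51_P211506 (NM_146071) and A_55_P2164744 (NM_001145874) for Muc20. Muc4, Muc13 and Muc20 lie on chromosome 16. The genes of Muc4 and Muc20 overlap on opposite strands, and 12 protein-coding genes lie between them and Muc13. The promoters of Muc4, Muc1 and Muc20, the members that passed the study's thresholds in a diet comparison (1.5-fold and an unadjusted p under 0.05), are shown as RefSeq gives them for the assembly GRCm38.p6, 250 bases before to 50 bases after the start site, 5′ to 3′ on the strand of the gene. Capitals mark every match on either strand to 6 short motifs: the TATA box TATAAA, the GC box GGGCGG, the AP-1 site TGANTCA, the STAT site TTCNNNGAA, the HNF1 half-site GTTAAT and the CDX site TTTATG. They lie at chr16:32735636-32735935 on the plus strand (Muc4), chr3:89228806-89229105 on the plus strand (Muc1) and chr16:32797386-32797685 on the minus strand (Muc20).
Muc4: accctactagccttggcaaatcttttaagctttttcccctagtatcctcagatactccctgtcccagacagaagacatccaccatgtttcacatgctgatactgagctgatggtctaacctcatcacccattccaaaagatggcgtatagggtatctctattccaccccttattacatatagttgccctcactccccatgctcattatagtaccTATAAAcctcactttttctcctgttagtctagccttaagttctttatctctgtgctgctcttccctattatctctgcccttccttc
Muc1: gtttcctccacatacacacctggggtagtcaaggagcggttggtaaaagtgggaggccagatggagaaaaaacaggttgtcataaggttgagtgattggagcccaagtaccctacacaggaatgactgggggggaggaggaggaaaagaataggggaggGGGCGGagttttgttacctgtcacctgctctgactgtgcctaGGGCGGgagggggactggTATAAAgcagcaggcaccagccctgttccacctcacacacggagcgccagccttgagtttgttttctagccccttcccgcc
Muc20: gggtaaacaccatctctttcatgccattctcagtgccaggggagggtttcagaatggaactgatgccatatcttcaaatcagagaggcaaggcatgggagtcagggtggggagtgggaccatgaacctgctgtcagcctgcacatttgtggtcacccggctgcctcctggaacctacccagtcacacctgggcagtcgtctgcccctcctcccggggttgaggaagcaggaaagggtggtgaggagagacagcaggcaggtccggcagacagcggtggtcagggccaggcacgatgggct

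Muc4 held a TATA box at position -36 from the start site, and Muc1 held one at -31 with GC boxes at -91 and -49. Muc20 held none of the 6 motifs. TATAAA was present in 13.6% and GGGCGG in 35.7% of all 32851 promoters of this length. Muc13 has 2 listed start sites, with AP-1 sites at -61 and -179, a STAT site at -140, a CDX site at -180 and an HNF1 half-site at -61 from their own starts, and Muc3 has a STAT site at 16. TGANTCA was present in 7.81%, TTCNNNGAA in 8.3%, GTTAAT in 7.1% and TTTATG in 11.9% of the same promoters. No motif was common to the 4 measured genes.

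Muc4, the member that binds Erbb2, was higher on HFD than on LFD in ovariectomized females. Its brightest probe was at 13.11, 11.79, 11.87 and 11.67 in the 4 F(OVX) + LFD samples and at 13.28, 13.74, 13.39 and 13.26 in the 4 F(OVX) + HFD samples. The groups did not overlap, although the first F(OVX) + LFD sample, well above the other 3 of its group, came close to the lowest F(OVX) + HFD sample. The mean rose from 12.11 ± 0.67 to 13.42 ± 0.23 (mean ± SD of 4 samples each), or by 1.30 on the log2 scale (SE 0.31, 95% interval 0.60 to 2.01) or 2.47-fold. With limma the unadjusted p was 0.00243 and the p adjusted by Benjamini-Hochberg over all 19211 genes tested was 1, and the exact two-sided permutation p was 0.0286, the smallest that 4 samples against 4 allow. The level of Muc4 in whole tissue cannot tell apart more or fewer cells that make it and more or less RNA per cell.

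The other 2 Muc4 probes were also higher on HFD. A_52_P578956 read 9.80, 8.17, 7.60 and 8.25 on LFD and 9.83, 10.58, 9.90 and 9.67 on HFD in ovariectomized females, a log2 fold change of 1.54 (SE 0.43). A_55_P2029603 read 7.42, 5.44, 5.46 and 5.75 on LFD and 7.29, 8.23, 7.75 and 7.46 on HFD. Its log2 fold change was 1.66 (SE 0.44). On this probe F(OVX) + LFD replicate 3, at 5.46, was not well above background. All 4 HFD samples were, so A_55_P2029603 entered this test only through the group in which it was higher. Both probes passed the thresholds, with limma p-values of 0.00616 and 0.00409 where 2.11% of all probes fitted on their own passed. Unlike the brightest probe, both had a first F(OVX) + LFD sample inside the range of the HFD samples, so by them the groups overlapped and the exact permutation p was 0.0571 for each. Over the 24 arrays the 3 probes followed each other with a Pearson correlation of 0.959 to 0.967, as a description of probes that read the same libraries. Without the first F(OVX) + LFD sample the difference of the brightest probe was 1.64 (SE 0.17), and without any other 1 of the 8 samples it was 1.16 to 1.36.

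**Figure D1:**
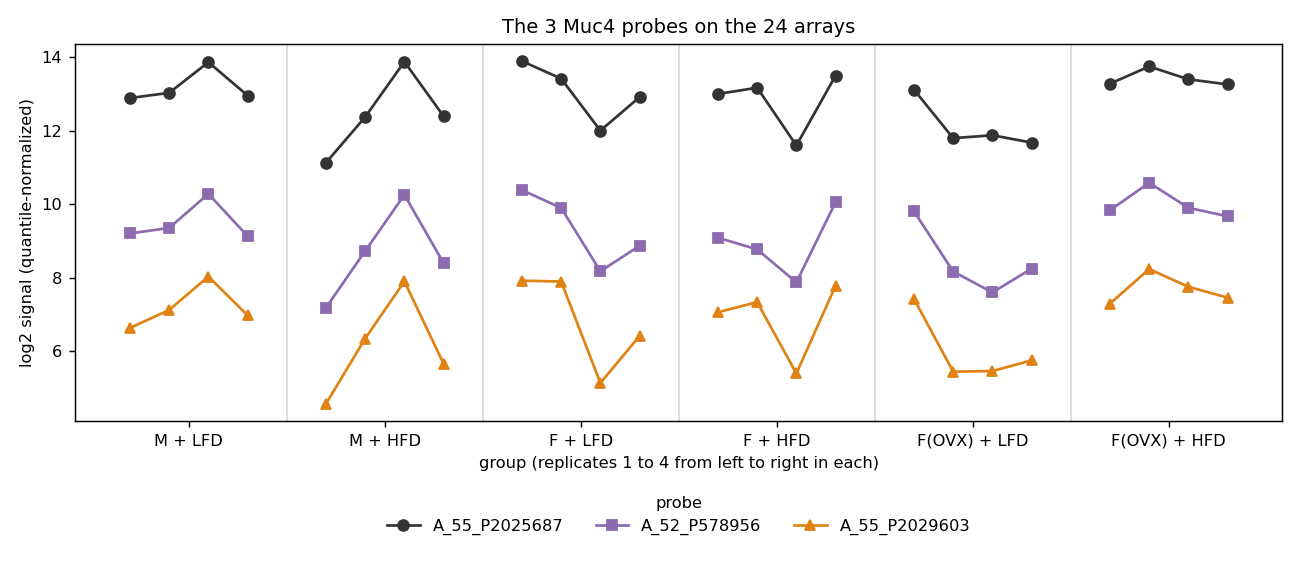
Quantile-normalized log2 signal of the 3 Muc4 probes (vertical axis, 1 line per probe) on the 24 arrays, ordered by group and replicate number (horizontal axis). The 3 lines have much the same shape, and all 4 F(OVX) + HFD samples lie high on each line while 3 of the 4 F(OVX) + LFD samples lie low.

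In males and in females the Muc4 samples of the 2 diets overlapped. The brightest probe read 12.89, 13.03, 13.86 and 12.95 in M + LFD and 11.13, 12.37, 13.87 and 12.39 in M + HFD. It read 13.89, 13.41, 11.998 and 12.91 in F + LFD and 13.00, 13.17, 11.59 and 13.49 in F + HFD. The log2 fold changes of HFD against LFD were -0.74 (95% interval -1.93 to 0.45) in males and -0.24 (-1.39 to 0.91) in females, and neither passed the thresholds. The difference in males was -0.97 without M + LFD replicates 1 and 2, which did not pass either. The diet difference of Muc4 itself differed between ovariectomized females and females by 1.54 (SE 0.71; unadjusted limma p of 0.0405, adjusted p = 1), where 1.52% of 22383 genes passed in this contrast. This call rested on single samples: without F + HFD replicate 3 the difference was 1.14 (unadjusted limma p of 0.108), and it was also not past the threshold without any 1 of 7 other samples or after scaling to the 75th percentile (1.33, unadjusted limma p of 0.0842). Of the other probes, A_52_P578956 gave 1.93 (unadjusted limma p of 0.0319) and A_55_P2029603 1.61 (unadjusted limma p of 0.108), where 1.74% of all probes passed.

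The diet difference of Muc4 in males was lower than that in ovariectomized females by 2.05 on the log2 scale (-2.05, SE 0.71, 95% interval -3.52 to -0.58; unadjusted limma p of 0.00876, adjusted p = 0.562). Both of its other probes passed too, with -2.40 and -2.74, where 6.02% of all probes passed. Without M + LFD replicates 1 and 2 the brightest probe gave -2.27 (unadjusted limma p of 0.0126, adjusted p = 0.884) and the others -2.61 and -3.05, all past the thresholds. In this contrast 6.16% of 22383 genes passed with all arrays, more than in any other contrast of diet differences. Without the 2 M + LFD arrays 1074 of 22430 genes passed. In that fit 1 of the 4 distal homeobox genes tested passed too, and their differences ran from -0.83 to 5.33. Both contrasts use the 8 samples of ovariectomized females, so they are not independent of each other.

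Muc1, whose tail takes part in signalling, moved the other way in the same ovariectomized females. It read 7.17, 7.51, 6.64 and 8.32 in F(OVX) + LFD and 5.68, 6.14, 5.44 and 6.26 in F(OVX) + HFD. Every HFD sample lay below every LFD sample, and 1 of them, the third, was not well above background. All 4 LFD samples were, so Muc1 entered this test only through the group in which it was higher. The mean fell from 7.41 ± 0.70 to 5.88 ± 0.38 (mean ± SD of 4 samples each), giving a log2 fold change of -1.53 (SE 0.35, 95% interval -2.32 to -0.74), or 2.89-fold lower on HFD. With limma the unadjusted p was 0.00176 and the Benjamini-Hochberg adjusted p was 1, and the exact permutation p was 0.0286. With the background removed by normexp instead, which shrinks differences of dim probes, the log2 fold change was -0.92 (unadjusted limma p of 0.00406). Leaving out each of the 8 samples in turn gave -1.23 to -1.79, past the thresholds each time.

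Thus 2 of the 4 measured members passed these thresholds in ovariectomized females, 1 higher and 1 lower, where 2.19% of 19211 genes did. These 2 were also the ones whose groups did not overlap, as was so for 2.3% of genes. Muc1 was among the genes tested only through its LFD group, in which it was higher. No gene of this comparison passed after adjustment by Benjamini-Hochberg, against 709 at an unadjusted limma p under 0.05. Smooth muscle markers moved with diet in the same samples: all 7 had higher means on HFD and 4, Des, Cnn1, Actg2 and Tagln, passed the thresholds (1.18% of genes passed as higher). The log2 of their summed signal was 15.44 to 16.65 on LFD and 16.54 to 17.68 on HFD, and none of the 7 was at background. The 7 epithelium markers gave 17.76 to 18.29 on LFD and 18.15 to 18.32 on HFD, with 0 passing by limma and 0 at an unadjusted p under 0.05. Of these 7, 6 had higher means on HFD, and their median log2 fold change was 0.23 beside 0.011 over all genes. In 4 other lists 1 marker each passed in the same samples: Guca2a of 7 absorptive colonocyte markers (0.90; list median 0.34, from -1.26 for Slc37a2 to 0.91 for Aqp8), Spdef of 8 goblet cell markers (0.76; median 0.20), Jchain of 9 immune cell markers (-0.72; median -0.21) and Hoxa5 of 5 proximal homeobox genes tested (-0.74; median 0.07, with 3 of the 5 means higher). The mean log2 of the 8 distal homeobox genes was 5.511, 7.685, 5.518 and 7.432 in F(OVX) + LFD replicates 1 to 4. In F(OVX) + HFD this mean was 5.329 to 5.85. Muc4 was at 11.79, 11.87 and 11.67 in F(OVX) + LFD replicates 2, 3 and 4. The part of these markers, and of position along the gut, in the Muc4 and Muc1 differences was not tested.

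**Figure D2:**
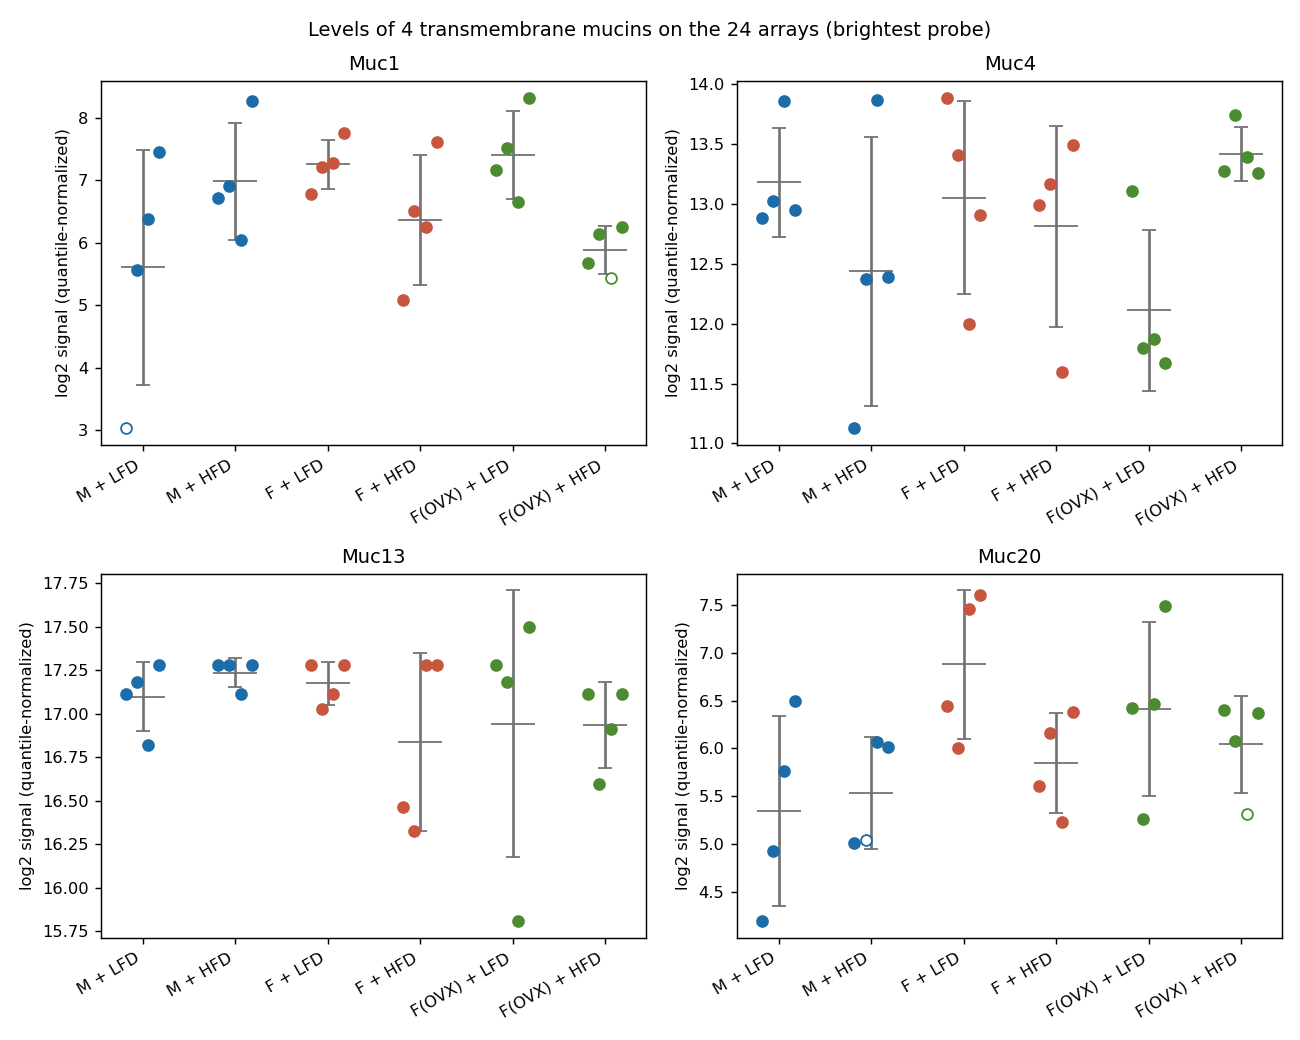
Quantile-normalized log2 signal (vertical axes) of the brightest probe of Muc1, Muc4, Muc13 and Muc20 in the 6 groups (horizontal axes). Each point is 1 sample, open where the probe was not well above background, and bars give the mean ± SD of 4 samples. In ovariectomized females the points of Muc1 and Muc4 separate by diet in opposite directions.

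In females on the 2 diets Muc1 read 6.78, 7.21, 7.28 and 7.75 (LFD) and 5.08, 6.51, 6.25 and 7.62 (HFD). The HFD samples reached from below to within the LFD range, and the log2 fold change of -0.89 (95% interval -1.99 to 0.21) did not pass the thresholds (unadjusted limma p of 0.1, adjusted p = 0.991). With the replicate number as a block, the same difference passed (unadjusted limma p of 0.0165, adjusted p = 0.666), and the share of all genes that passed with it is not given here. The labels do not say that samples of 1 number are paired. Same-numbered female samples had correlated deviations (0.22 to 0.51). In males Muc1 read 3.03, not above background, 5.57, 6.37 and 7.45 on LFD and 6.71, 6.90, 6.04 and 8.27 on HFD. The log2 fold change of 1.38 (SE 0.89, 95% interval -0.65 to 3.41) did not pass, and the 2 lowest M + LFD samples were the 2 with little Hoxb13. Without them it was 0.07 (SE 0.62).

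The diet difference of Muc1 in males exceeded that in ovariectomized females by 2.91 (SE 0.97; unadjusted limma p of 0.00682, adjusted p = 0.562) and that in females by 2.27 (unadjusted limma p of 0.0292, adjusted p = 0.975), where 2.95% of genes passed in the latter contrast. Without M + LFD replicates 1 and 2 these became 1.60 (unadjusted limma p of 0.0554) and 0.96 (unadjusted limma p of 0.236), and neither passed. Without M + LFD replicate 1 alone the difference from females was 1.41 (unadjusted limma p of 0.0777). The difference of Muc1 between males and females on LFD (-1.65, unadjusted limma p of 0.0254) likewise became -0.34 (unadjusted limma p of 0.58) without these 2 samples.

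Muc20, the member described as a partner of Met, was the only 1 of the 4 to pass the thresholds in females, where 1.2% of 22085 genes did. It read 6.45, 6.01, 7.46 and 7.61 in F + LFD and 5.61, 6.17, 5.23 and 6.38 in F + HFD. The ranges overlapped between 6.01 and 6.38, while the 2 highest LFD samples lay well above all HFD samples. The mean fell from 6.88 ± 0.78 to 5.85 ± 0.53 (mean ± SD of 4 samples each), giving a log2 fold change of -1.03 (SE 0.41, 95% interval -1.97 to -0.10) or 2.05-fold lower. With limma the unadjusted p was 0.0346 and the Benjamini-Hochberg adjusted p 0.991, and the exact permutation p was 0.114. The call was lost without F + LFD replicate 3 or 4 or F + HFD replicate 1 or 3 (-0.79 to -0.95) and after normexp correction (-0.58).

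In ovariectomized females Muc20 read 6.43, 5.26, 6.46 and 7.49 on LFD and 6.40, 6.08, 5.32 and 6.38 on HFD, and in males it read 4.19, 4.93, 5.76 and 6.49 on LFD and 5.01, 5.04, 6.06 and 6.01 on HFD. The second M + HFD and the third F(OVX) + HFD sample were not well above background. The log2 fold changes of HFD against LFD were -0.37 (95% interval -1.37 to 0.64) in ovariectomized females and 0.19 (-0.95 to 1.32) in males, and neither passed. Without the 2 M + LFD samples with little Hoxb13 the difference in males was -0.60. On LFD, Muc20 was 1.54 lower on the log2 scale in males than in females (-1.54, SE 0.50; unadjusted limma p of 0.00574, adjusted p = 0.28), and without the same 2 samples it was -0.75 (unadjusted limma p of 0.187). The second Muc20 probe, for another transcript, was well above background on none of the 24 arrays, with values of 2.04 to 4.02.

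Muc13, a mucin of the intestinal surface, passed the thresholds in none of the 3 diet comparisons. Its second probe, A_51_P263033, read 14.63, 14.82, 14.38 and 14.88 in M + LFD and 14.73, 14.94, 14.23 and 14.82 in M + HFD. It read 14.37, 14.13, 14.28 and 14.57 in F + LFD and 13.57, 13.55, 14.32 and 14.26 in F + HFD. In ovariectomized females it read 14.63, 14.22, 13.25 and 14.67 on LFD and 14.29, 13.80, 13.74 and 14.20 on HFD. The diets overlapped in each kind of mice.

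The brightest Muc13 probe, A_55_P1971840, ranked between 1 and 157 of 56605 probes on an array, with a median rank of 3.5. Quantile normalization gives probes of the same rank the same value, so its levels, 15.81 to 17.50, are limited at the top. Its log2 fold changes of HFD against LFD were 0.14 (95% interval -0.18 to 0.46) in males, -0.34 (-0.90 to 0.22) in females and -0.01 (-0.80 to 0.78) in ovariectomized females, and 0.19 in males without M + LFD replicates 1 and 2. Over the 24 arrays its SD was 0.385 after quantile normalization and 0.216 after scaling to the 75th percentile. On HFD the second probe was 0.75 higher in males than in females (SE 0.26; unadjusted limma p of 0.00962, adjusted p = 0.219), where 8.09% of all probes passed, and the brightest probe was 0.40 higher (unadjusted limma p of 0.163), which did not pass.

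**Figure D3:**
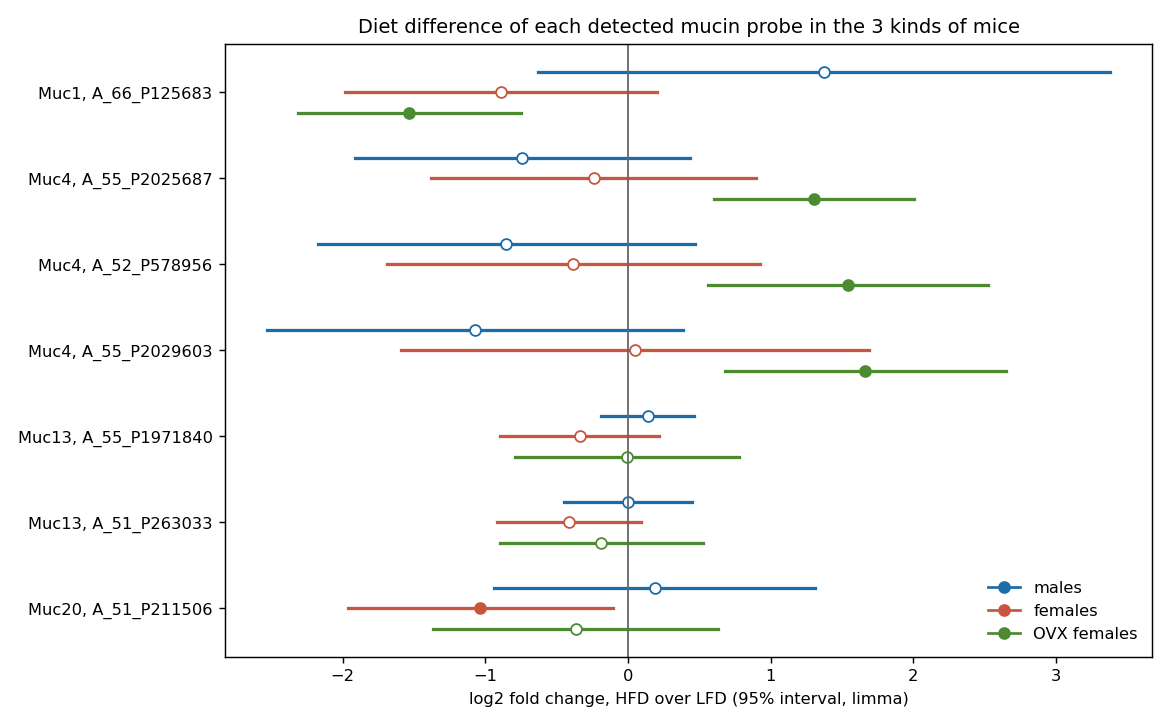
Log2 fold change of HFD against LFD (horizontal axis) of the 7 detected probes (vertical axis) in males, females and ovariectomized (OVX) females, each probe fitted on its own. Bars give the 95% interval of limma and filled points passed a fold change of at least 1.5 with an unadjusted p under 0.05. The 3 Muc4 probes lie to the right of 0 and Muc1 to the left in OVX females, and the intervals of males include 0 for every probe.

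In males 0 of the 4 members passed the thresholds, and 0 had an unadjusted limma p under 0.05, where 4.3% of 20516 genes passed. Averaged over the 3 kinds of mice, no member passed (0.773% of 22383 genes did). The average log2 fold changes were -0.35 for Muc1, 0.11 for Muc4, -0.07 for Muc13 and -0.40 for Muc20. Without M + LFD replicates 1 and 2, those of Muc1 (-0.78, unadjusted limma p of 0.0204, adjusted p = 1) and Muc20 (-0.67, unadjusted limma p of 0.0282, adjusted p = 1) passed. The 0.773% belongs to the fit with all arrays. The share of all genes that passed in this average without these 2 arrays is not given here. A test for any difference among the 6 groups gave adjusted p-values by limma of 0.429 (Muc20), 0.462 (Muc1), 0.552 (Muc4) and 0.855 (Muc13), so no member was among the 0.925% of genes under 0.05.

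In order of group means, Muc4 ran from 12.11 in F(OVX) + LFD through 12.44 in M + HFD, 12.81 in F + HFD, 13.05 in F + LFD and 13.18 in M + LFD to 13.42 in F(OVX) + HFD. Muc1 ran from 5.61 in M + LFD through 5.88 in F(OVX) + HFD, 6.36 in F + HFD, 6.98 in M + HFD and 7.25 in F + LFD to 7.41 in F(OVX) + LFD, and Muc20 from 5.34 in M + LFD through 5.53 in M + HFD, 5.85 in F + HFD, 6.04 in F(OVX) + HFD and 6.41 in F(OVX) + LFD to 6.88 in F + LFD. Neighbours in these 3 orders differed by less than the larger of their 2 SDs. Between males and females on LFD, Muc1 and Muc20 passed, where 5.06% of genes did and 0.299% passed after adjustment, neither member among them. On HFD no brightest probe of a member passed between males and females (7.51% of genes did, 0.273% after adjustment). Between ovariectomized and intact females no member passed on LFD (1.7% of genes did) or on HFD (2.31%), and Muc4 on LFD came closest with -0.94 (95% interval -1.98 to 0.10, unadjusted limma p of 0.0742).

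The replicate number, which is also the column of the slide, went with Muc1. Replicate 4 was the highest of its group in 6 of 6 groups, by 0.38 to 1.85 above the group mean, and replicate 1 was below the mean in each. The same was true of 61 of 22373 genes tested for a highest replicate 4 in all 6 groups. For Muc20, replicate 4 was the highest in 4 of 6 groups and 0.33 to 1.15 above the mean. For Muc4 it was the highest in 1 of 6. Both Muc13 probes had replicate 4 above the mean in 6 of 6 groups, by 0.04 to 0.56 (brightest probe) and 0.14 to 0.48. With the column as a block common to the 3 slides, an alternative chosen after the data were seen, the diet difference of Muc1 in males passed (1.38, SE 0.48; unadjusted limma p of 0.0108, adjusted p = 0.423). The share of all genes that passed with this block is not given here. With no block and without M + LFD replicates 1 and 2, the Muc1 difference in males was 0.07 (SE 0.62). What the replicate numbers have in common beyond the slide column is not given in the sources used here.

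**Figure D4:**
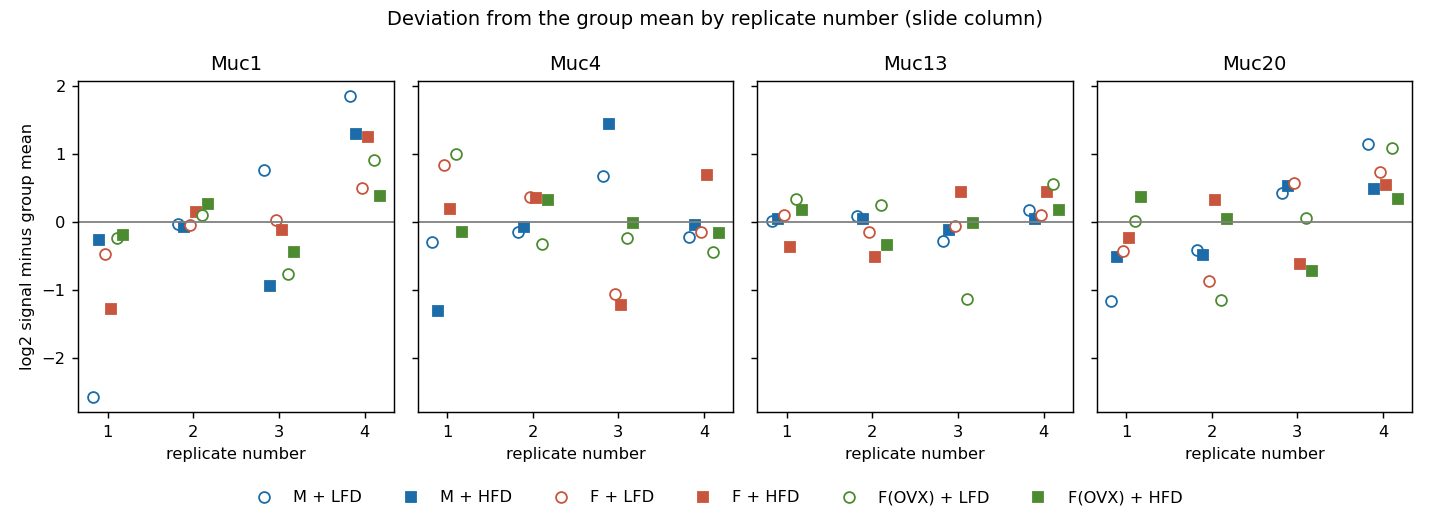
Log2 signal minus the mean of the group (vertical axis) against the replicate number, which is also the slide column (horizontal axis), for the brightest probe of each gene; each point is 1 sample, open for LFD and filled for HFD. All 6 points of Muc1 at replicate 4 lie above 0, as do those of Muc13 and Muc20.

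Among the members, Muc1 and Muc20 were the most alike over the 24 arrays (Pearson correlation 0.639, Spearman 0.53), and 0.631 after each group mean was subtracted. Muc4 and Muc20, whose genes overlap, had a correlation of 0.067, and Muc4 and Muc1 one of -0.272, or -0.022 within groups. These correlations describe samples that share slides and columns. Among 11878 other genes well above background on all arrays, those closest to Muc4 were Slc12a8 (0.938), Alg9 (0.923), Slc39a11 (0.916), Dnajc10 (0.914) and Tnfrsf23 (0.91), and the same 5 led after the group means were subtracted (0.904 to 0.931). Those closest to Muc1 were Tmem40 (0.862), Spata6 (0.844), Nlrp10 (0.82), Thpo (0.797) and Slc28a3 (0.797). Spata6 led within groups (0.859). Those closest to Muc20 were Glipr1 (0.821), Gusb (0.808), Cyba (0.788), Cp (0.783) and Spata6 (0.779), and within groups Hp (0.852) led. The brightest Muc13 probe, limited at the top, was closest to Mprip (0.871), Phf12 (0.864), Dip2b (0.854), Rere (0.849) and Zfp512 (0.849).

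Of 8 other membrane mucins and mucin-like proteins, 4 had probes and 3 were tested, the sialomucins Emcn and Cd164 and the adhesion molecule Mcam. None passed in any diet comparison by limma, 0 had an unadjusted p under 0.05, and their log2 fold changes were -0.27 to 0.30. Of the secreted mucins, Muc5ac and Muc5b were not above background on any array, and Muc2, the gel-forming mucin of goblet cells, changed by -0.44 in males, -0.04 in females and 0.27 in ovariectomized females, none of which passed. The diet difference of Muc2 in males was lower than that in ovariectomized females by 0.71 on the log2 scale (-0.71, SE 0.26; unadjusted limma p of 0.0131, adjusted p = 0.562), and without M + LFD replicates 1 and 2 by a like amount (-0.71, SE 0.31), past the thresholds both times. Of the 8 goblet cell markers, which include Muc2, Spdef alone passed in a diet comparison (0.76 in ovariectomized females; unadjusted limma p of 0.0336, adjusted p = 1).

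None of the 15 signalling partners and sheddases of these mucins passed the thresholds in a diet comparison by limma, and 1, Met in males with 0.43 (0.36 without M + LFD replicates 1 and 2), had an unadjusted p under 0.05. Erbb2, the receptor that Muc4 binds, had a log2 fold change of -0.08 (SE 0.22) in the ovariectomized females in which Muc4 rose, and Met had -0.06 (SE 0.14). None of the 12 brush border genes tested passed by limma either and 0 had an unadjusted p under 0.05, with log2 fold changes of -0.38 to 0.42 over the 3 diet comparisons. Espn of the brush border list (0.78) and Tff3 of the goblet list (0.69) passed as higher in males when M + LFD replicates 1 and 2 were left out. Each was 1 gene of its list, of 12 and 8 tested, where 868 of 20588 genes passed in either direction. The list medians in that fit were 0.38 (brush border) and -0.30 (goblet). Among transcription factors and cytokine receptors known to act on mucin genes, 2 of 16 tested passed as lower on HFD in males, where 1.8% of genes did. The intestinal factor Cdx2 was 1 of these (-1.77, SE 0.53), and without M + LFD replicates 1 and 2, when 1 of 16 passed, it no longer did (-1.24, SE 0.64). Cdx2 had the largest log2 fold change of this list in ovariectomized females too, 1.16 (SE 0.51; unadjusted limma p of 0.0503), which did not pass. The median log2 fold change of the 4 members was 0.16 in males, -0.61 in females and -0.19 in ovariectomized females, beside 0.01, -0.004 and 0.011 over all genes tested.

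**Figure D5:**
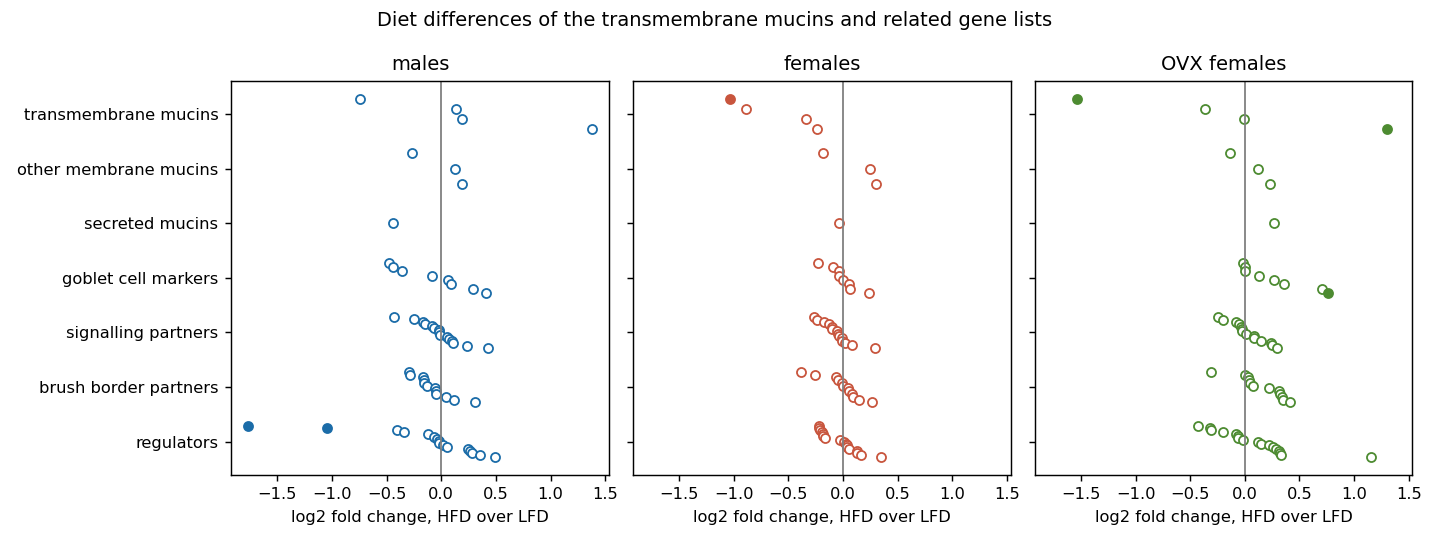
Log2 fold change of HFD against LFD (horizontal axes) of each tested gene of the transmembrane mucins and 6 related lists (vertical axis) in males, females and ovariectomized females. Each point is a gene, filled where it passed a fold change of at least 1.5 with an unadjusted p under 0.05. Muc1 and Muc4 stand at -1.53 and 1.30 in ovariectomized females, while the signalling and brush border genes lie between -0.43 and 0.43 in each panel.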

How the data were processed

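Colon RNA of 24 mice, 4 per group, was hybridized to 1-color Agilent arrays. The deposited values are spot intensity from Agilent Feature Extraction 11.0.1.1: the authors' processed signal, background-corrected per spot, and the raw signals used for normexp. The number of arrays limits the precision. Control spots were removed, spots of a probe averaged, and log2 intensity was quantile-normalized over the 24 arrays with limma 3.58.1 in R 4.3.3. Probes were named by accession through the RefSeq gene table, which named 58.3% of them. The brightest probe stood for a gene, and a gene was tested where 1 of the 2 groups had its probe well above background on 4 of 4 arrays.

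Diet was tested within males, females and ovariectomized females, each on its 8 arrays, and differences of diet effects, averages and contrasts between kinds of mice on all 24 arrays, with limma. The study's methods set 2 thresholds, kept here for calling a gene: 1.5-fold, and 0.05 for the unadjusted p; Benjamini-Hochberg adjusted p-values over all genes stand beside it. Single values also had an exact two-sided permutation test over the 70 assignments of 8 arrays. The code was tested on simulated data. Members, lists and tests were chosen with earlier results of these data known. Named genes were all members, the 5 genes most correlated with each over the 24 arrays or within groups, genes of the related lists that passed or were lowest or highest in their list, and markers that moved with a member; Erbb2 was added after its values were seen. A result of the list of regulators is not reported here. Alternatives were other scaling (75th percentile), normexp (offset 50), other filters, single probes, left-out arrays, blocks and the methods' t-test. The labels do not say whether replicate numbers pair samples. The deviations of same-numbered samples had correlations of 0.22 to 0.51 in females, positive for each number. The correlations were -0.25 to 0.09 in males and -0.06 to 0.32 in ovariectomized females. A pairing cannot be told apart from the slide column. Nothing says whether the samples of a group share a cage or a day, so p-values measure the spread between these samples.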

Additional observations from a re-analysis of the deposited data

Results flagged for a closer look

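In 42 groups of 4 samples, 1 for each detected probe and group, 4 had a sample far from the other 3, where chance flags about 1 in 20 groups. For the brightest Muc4 probe these were M + LFD replicate 3 at 13.86, above the others of its group, and F(OVX) + LFD replicate 1 at 13.11. The dimmest Muc4 probe, A_55_P2029603, also had F(OVX) + LFD replicate 1 apart, at 7.42. For the brightest Muc13 probe M + HFD replicate 3, at 17.12, lay below the other 3, which all read 17.28 after rounding, near the top of the scale.

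The diet effect differed between kinds of mice, by a test of the difference itself, for Muc1 (2.27 between males and females and 2.91 between males and ovariectomized females) and for Muc4 (1.54 between ovariectomized females and females and -2.05 between males and ovariectomized females). Without M + LFD replicates 1 and 2, both Muc1 differences were no longer past the thresholds (0.96 and 1.60), and the Muc4 difference of 1.54 was lost in 8 of the 24 fits that leave out 1 array. None had an adjusted p by limma with Benjamini-Hochberg below 0.562.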

How the results depend on the processing

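The Muc4 and Muc1 calls in ovariectomized females held under each alternative in which they were tested; with a filter for all 24 arrays 2 members were tested and 1, Muc4, passed. Of 334 recomputed counts of members that passed, 289 were within 1.5 times the original, and of 1348 recomputed single values 1272 kept direction and call, 29 lost the call, 15 gained it and 32 changed sign. No cause of a change was tested.

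In females the count of 1 became 0 with normexp, with the filter for all 24 arrays, with all 24 arrays in the fit and with the methods' t-test, and 2 (Muc1 and Muc20) with the replicate block. For the diet effect of ovariectomized females against females, the count of 1 became 0 with 75th percentile scaling, without the 2 arrays with the fewest probes above background and with the slide column as a block, an alternative chosen after the data were seen. For males against females on diet, it became 0 with the filter for all 24 arrays and without M + LFD replicates 1 and 2, and 2 with the replicate block or the slide column. For males against ovariectomized females, 2 became 1 with that filter or without those 2 arrays. For males against females on LFD, 2 became 0 in the same 2 settings. The average count of 0 became 2 without M + LFD replicates 1 and 2, and that of males became 1 with the slide column. The replicate block changed no other count of calls; it could not be fitted for contrasts between kinds of mice on 1 diet or for the test over all 6 groups, and was not run there.

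Signs changed for small differences. For Muc13, 75th percentile scaling gave 0.061 (average), -0.052 (ovariectomized females against females, diet effect), 0.05 (the same on LFD) and -0.002 (on HFD); its second probe gave -0.001 in males and 0.34 for males against females on LFD; and leaving out the 2 arrays with the fewest probes above background gave -0.22, 0.15 and -0.07 for the 3 contrasts of ovariectomized females against females. The third Muc4 probe gave 0.052 in females. Without M + LFD replicates 1 and 2, Muc20 gave -0.60 in males and -0.23 for males against ovariectomized females.

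Leaving out each array in turn moved the counts to 0 to 1 in males, 0 to 2 in females, 0 to 2 for males against females on diet, 0 to 1 for ovariectomized females against females on diet, 1 to 2 for males against females on LFD and 0 to 1 for ovariectomized females against females on LFD. Values that changed sign ran from -0.197 to 0.571 (Muc20, males), -0.591 to 0.166 (Muc4, females), -0.386 to 0.178 (Muc13, ovariectomized females) and -0.051 to 0.254 (Muc4, average). Between diet effects they ran from -0.048 to 0.516 (Muc13, ovariectomized females against females) and -0.04 to 0.524 (Muc13, males against ovariectomized females). Between males and females they ran from -0.135 to 0.018 (Muc13, LFD), -0.222 to 0.408 (Muc4, LFD) and -0.85 to 0.065 (Muc4, HFD). Between ovariectomized and intact females they ran from -0.418 to 0.145 (Muc13, LFD), -0.145 to 0.414 (Muc1, LFD), -0.073 to 0.245 (Muc13, HFD) and -0.009 to 0.44 (Muc20, HFD).

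Muc1 and Muc20 were each well above background on 22 of 24 arrays and their differences shrank with normexp. Muc13 was near the top of the scale. Probe strand and specificity, which bear on the overlapping genes Muc4 and Muc20, were not tested.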
